A study of Mus musculus with 18 samples.

Results

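The S100 calcium-binding proteins described here are the products of 8 mouse genes, *S100b*, *S100a1*, *S100a4*, *S100a6*, *S100a10*, *S100a11*, *S100a13* and *S100a16*, taken by name from the 54838 genes of a table of RNA-sequencing read counts. The 18 cultures behind the table came from wild type C57BL/6J mice. Neural stem cells of the ventricular zone at embryonic day 14 were grown as neurospheres (NSPs, free-floating aggregates of proliferating cells) with the growth factor EGF at 20 ng/ml, and were differentiated into astrocytes by changing the medium to one with 10% fetal bovine serum. There were 6 conditions with 3 replicates each, namely NSPs, cells at 24 h, cells at 24 h with TNF, cells at 72 h, cells at 72 h with TNF, and cells at 1 week. TNF, an inflammatory cytokine, was given at 50 ng/ml. Each isolation used a single brain, and the methods describe the data in general as means of independent experiments, but the sources used here do not tie the libraries to animals, so the p-values measure the spread between these cultures. In such bulk cultures fewer cells of a type and less RNA per cell cannot be told apart.

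S100 proteins are small proteins with a pair of EF-hands, the loops that hold calcium. Most of them work as dimers, which open a hydrophobic surface when calcium binds and then attach to target proteins such as annexins and cytoskeletal proteins. Some are also released from cells and act on receptors such as RAGE and TLR4. S100B is abundant in astrocytes and is widely used as a marker of them. S100A10 is an exception in the family, since its loops no longer bind calcium and it stays joined to annexin A2.

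Of the 8 genes, 7 lie on chromosome 3 and *S100b* lies on chromosome 10 (76253853 to 76261159, GRCm38, positions from GENCODE M21). The genes on chromosome 3 span 3.05 Mb, and 5 of them, from *S100a1* to *S100a6*, lie within 113 kb. *S100a1* (90511034 to 90514392, minus strand) and *S100a13* (90514435 to 90524581, plus strand) stand head to head, with their start sites 43 bases apart. *S100a16* (90537254 to 90543151), *S100a4* (90603771 to 90606045) and *S100a6* (90612882 to 90624181) follow on the plus strand, and *S100a11* (93520488 to 93526287) and *S100a10* (93555080 to 93564643) are neighbours farther along. The exons of *S100a4* share 302 of their 584 bases with a read-through gene on the same strand, *Gm42674*, which had 0 counts in every library, so the count of *S100a4* is uncertain. *S100b* overlaps *Dip2a* on the opposite strand but shares no exon base with it.

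RefSeq windows around the start site (250 bases before to 50 after, GRCm38.p6) were found for 7 of the 8 genes. The bases between the starts of *S100a1* and *S100a13* are shown because these genes share them and have similar profiles across the libraries, and the bases before *S100a11* because they held most of the motif matches.
S100a1 to S100a13 gap, chr3:90514393-90514434, plus strand: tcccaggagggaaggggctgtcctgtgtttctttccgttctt
S100a11 upstream, chr3:93520246-93520487, plus strand: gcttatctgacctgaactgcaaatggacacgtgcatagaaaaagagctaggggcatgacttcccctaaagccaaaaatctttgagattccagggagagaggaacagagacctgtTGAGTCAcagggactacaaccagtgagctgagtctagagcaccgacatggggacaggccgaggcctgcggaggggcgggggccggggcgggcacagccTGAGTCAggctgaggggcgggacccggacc
The capitals mark matches to the AP-1 motif (TGANTCA), which begin 136 and 38 bases before the RefSeq start site of *S100a11*. The other windows held 1 further match to this motif, 192 bases before the second start site of *S100a16*. On both strands, 7.81% of 32851 RefSeq windows held an AP-1 match. The NF-kB motif (in 4.51% of all windows), the STAT motif (8.30%), the TEAD motif GGAATG (14.7%) and the CArG box (1.63%) had no match in the windows of the 7 genes. These matches describe letters in the windows and not binding.

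Total counts ranged from 12509693 to 22549627 per library, of which the 8 genes took between 0.00936% and 0.0238%. Of 14 astrocyte markers, 13 were detected in all 18 libraries, and *Gjb6* was at 0 in 1 library. The level of *Gfap*, the astrocyte filament protein, was 11.6 to 37.3 CPM (read counts scaled to the library total with TMM normalization) in NSPs, 1855 to 3172 CPM at 72 h and 52.7 to 81.6 CPM at 1 week. Replicate 1 of both TNF conditions stood apart from the other replicates, with *Gfap* at 1871 CPM against 463 and 597 at 24 h with TNF and at 1022 against 217 and 229 at 72 h with TNF. Both were also the highest of their condition in the summed level of 11 myeloid markers (17.95 and 12.2 CPM) and the lowest in that of 12 fibroblast and mural markers (100.0 and 55.4 CPM). Beta actin, *Actb*, was at 1729 CPM in replicate 1 against 3215 and 3631 at 24 h with TNF, and at 1929 against 2570 and 2986 at 72 h with TNF. The noncoding RNA *Malat1* was at 64210 CPM against 42190 and 43200, and at 58620 against 45460 and 37430. NSP replicate 1 also stood apart. Its counts were 52.8 and 46.1 chi-square units per degree of freedom from those of the other NSP replicates, which were 4.08 from each other, beside 49.7 to 62.7 for the same pairs of TNF replicate 1, and it had *Apoe*, a lipid carrier of astrocytes, at 312.9 CPM against 1268 and 1117. Of the myeloid markers, *C1qa* and *C1qb* were at 0 in all 18 libraries and *Ptprc* in 12 of them, whereas *Cd68*, *Csf1r*, *Aif1*, *P2ry12* and *Cx3cr1* were detected in all 18, and the mean level of *Cd68*, a lysosomal protein, was 1.98 CPM at 24 h and 8.21 CPM with TNF. The summed level of 11 ependymal markers was 22.9 to 37.4 CPM in NSPs against 290.0 to 395.5 CPM at 72 h, and *Tmem212* among them was at 0 in 17 libraries. The part of these differences in the S100 values was not tested. Values without replicate 1 of NSPs or of the TNF conditions stand beside the results whose call or size they changed most.

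Scaled to the length of their exons, the 8 genes summed to 170.1 ± 6.00 CPM per kb in NSPs (mean ± SD, n = 3 here and below), 139.3 ± 11.4 at 24 h, 172.0 ± 39.0 at 72 h and 80.2 ± 8.02 at 1 week. With TNF the sum was 169.0 ± 21.1 CPM per kb at 24 h and 135.7 ± 59.6 at 72 h. *S100b* held 46.5 ± 1.76% of it in NSPs and 11.8 ± 2.13% at 1 week, while *S100a10* went from 35.9 ± 1.99% to 59.2 ± 2.47% and *S100a16* from 14.8 ± 1.19% to 21.3 ± 0.924%. Together these 3 genes took 97.2 ± 0.801% of the sum in NSPs and 86.2 ± 4.12% at 72 h with TNF, the lowest mean of the 6 conditions. At 24 h with TNF it was 86.6 ± 1.09%, and the 72 h TNF libraries ranged from 81.45%, in replicate 1, to 88.7%. Shares of the other 5 genes included 7.06 ± 0.612% for *S100a4* at 24 h with TNF and 4.83 ± 1.80% for *S100a11* at 24 h.

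**Figure D1:**
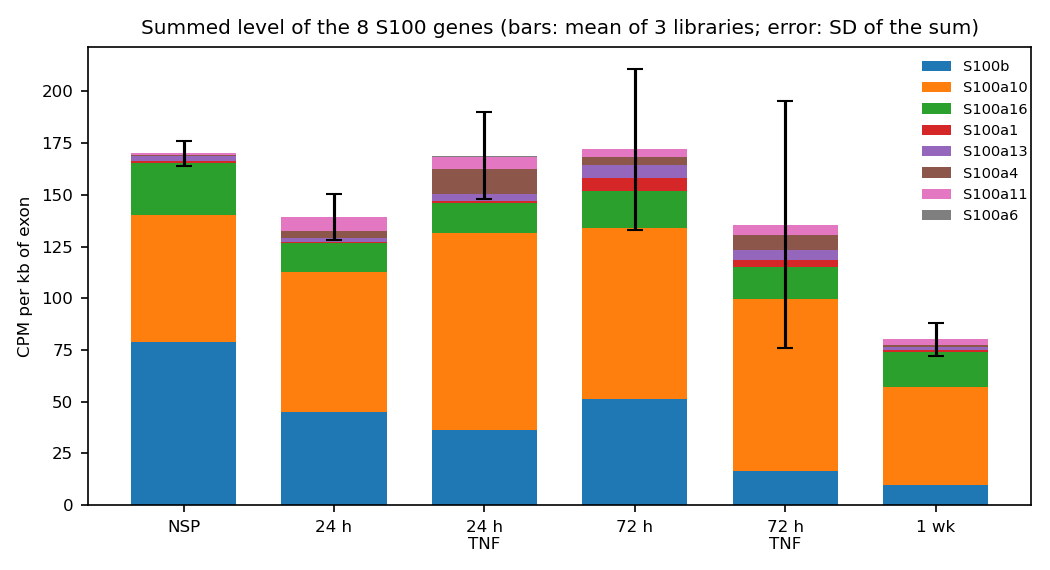
Stacked bars give the mean level of each of the 8 S100 genes (y axis, CPM per kb of exon) in the 6 conditions (x axis, 3 libraries each), with the SD of the summed level as the error bar. The S100b part shrinks from 46.5% of the bar in NSPs to 11.8% at 1 week, and S100a10 makes up the largest part in every condition but NSPs.

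Differential expression was tested with edgeR's quasi-likelihood test over 20067 genes, and a gene is called where its adjusted p-value (Benjamini-Hochberg over all of them) was under 0.05. *S100a6* did not pass the filter on low counts, so 7 of the 8 genes were tested. Against NSPs, 4 of the 7 were called at 24 h (52.7% of all genes tested), 6 at 72 h (55.3%) and 3 at 1 week (58.6%). With TNF, 5 were called at 24 h (54.5%) and 6 at 72 h (61.9%) against the same NSPs. From 24 h to 72 h, 2 were called (24.8%), both higher (12.2% of all genes were called higher). From 72 h to 1 week, 4 were called (6.63%), all lower (3.96% of all genes were called lower). With TNF throughout, 2 were called between 24 h and 72 h (13.3%). TNF against no TNF gave 1 call at 24 h (3.5%) and 1 at 72 h (9.56%), and the TNF effect differed between the times for 1 gene (0.458%). The median log2 fold change of the 7 genes was 1.52 at 72 h and -0.49 at 1 week against NSPs, and over all genes tested it was 0.05 and 0.06.

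*S100b* fell during differentiation. Its level was 116, 120.3 and 116 CPM in the NSP libraries, 71.2, 68.8 and 60.5 CPM at 24 h, 53.9, 90.1 and 84.0 CPM at 72 h, and 12.3, 12.2 and 17.6 CPM at 1 week. No library of a later condition reached the NSP range, and the 1 week libraries lay below all others. Against NSPs, the log2 fold change was -0.81 ± 0.18 (SE) at 24 h (edgeR adjusted p = 0.00123), -0.63 ± 0.18 at 72 h (edgeR adjusted p = 0.00713) and -3.07 ± 0.20 at 1 week (edgeR adjusted p = 3.42e-10), which was 8.39-fold lower. The 24 h and 72 h ranges overlapped, and the difference between them was not called (log2 fold change 0.19 ± 0.18, edgeR adjusted p = 0.508). From 72 h to 1 week the fall was -2.44 ± 0.20 on the log2 scale (edgeR adjusted p = 1.30e-06). Of 12 oligodendrocyte lineage markers, the 11 other than *Cnp* summed to 1062 to 1374 CPM in NSPs, 378.5 to 457.3 CPM at 24 h, 84.3 to 93.6 CPM at 72 h and 112.8 to 130.7 CPM at 1 week. *Cnp*, a myelin enzyme, was at 63.2 to 110.9 CPM in NSPs, 362.4 to 498.7 CPM at 72 h and 205.5 to 258.3 CPM at 1 week. Against NSPs it went the other way, but from 72 h to 1 week it fell. The 14 astrocyte markers summed to 5973 to 6429 CPM in NSPs, 6944 to 9387 CPM at 72 h and 4321 to 4412 CPM at 1 week. The mean of *Gfap* among them was 27.1 CPM in NSPs, 2432 CPM at 72 h and 63.4 CPM at 1 week. Of 13 tested, 4 were called higher and 3 lower at 72 h against NSPs (28.1% and 27.2% of all genes tested). Their median log2 fold change was 0.02. From 72 h to 1 week, 7 were called lower and 1 higher (6.63% of all genes tested were called). The means of *Gpld1* and *Kcnj10* rose over this step, from 67.65 to 209.2 CPM and from 380.9 to 553.0 CPM. The part of these markers in the fall of *S100b* was not tested.

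With TNF, *S100b* was at 63.3, 47.2 and 50.2 CPM at 24 h and at 29.2, 23.9 and 20.3 CPM at 72 h. The 24 h values with and without TNF overlapped, whereas at 72 h every TNF library was below every untreated one. The TNF effect was -0.32 ± 0.18 on the log2 scale at 24 h (edgeR adjusted p = 0.495) and -1.64 ± 0.19 at 72 h (edgeR adjusted p = 1.66e-05), or 3.11-fold lower. This call was kept with each of the 18 libraries left out in turn (log2 fold change -1.83 to -1.50) and without both TNF replicates 1 (-1.79). The astrocyte markers summed to 4314 to 5844 CPM in the 72 h TNF libraries, below the untreated range. The mean of *Gfap* among them was 489.2 CPM with TNF and 2432 CPM without. Of 13 tested, 3 were called lower with TNF and 0 higher (9.56% of all genes tested were called). Their median log2 fold change was -0.83. The 12 oligodendrocyte lineage markers summed to 339.1 to 405.1 CPM with TNF and 446.7 to 592.3 CPM without, a difference in *Cnp*, since the other 11 were higher with TNF (146.6 to 186.7 against 84.3 to 93.6 CPM). The part of these markers in the TNF effect on *S100b* was not tested. The difference between the effects, tested as an interaction, was -1.32 ± 0.26 (edgeR adjusted p = 0.0309). It did not pass with the replicate number as a block (edgeR adjusted p = 0.0538) and passed with 10 of the 18 libraries left out in turn (edgeR adjusted p from 0.00482 to 0.120).

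**Figure D2:**
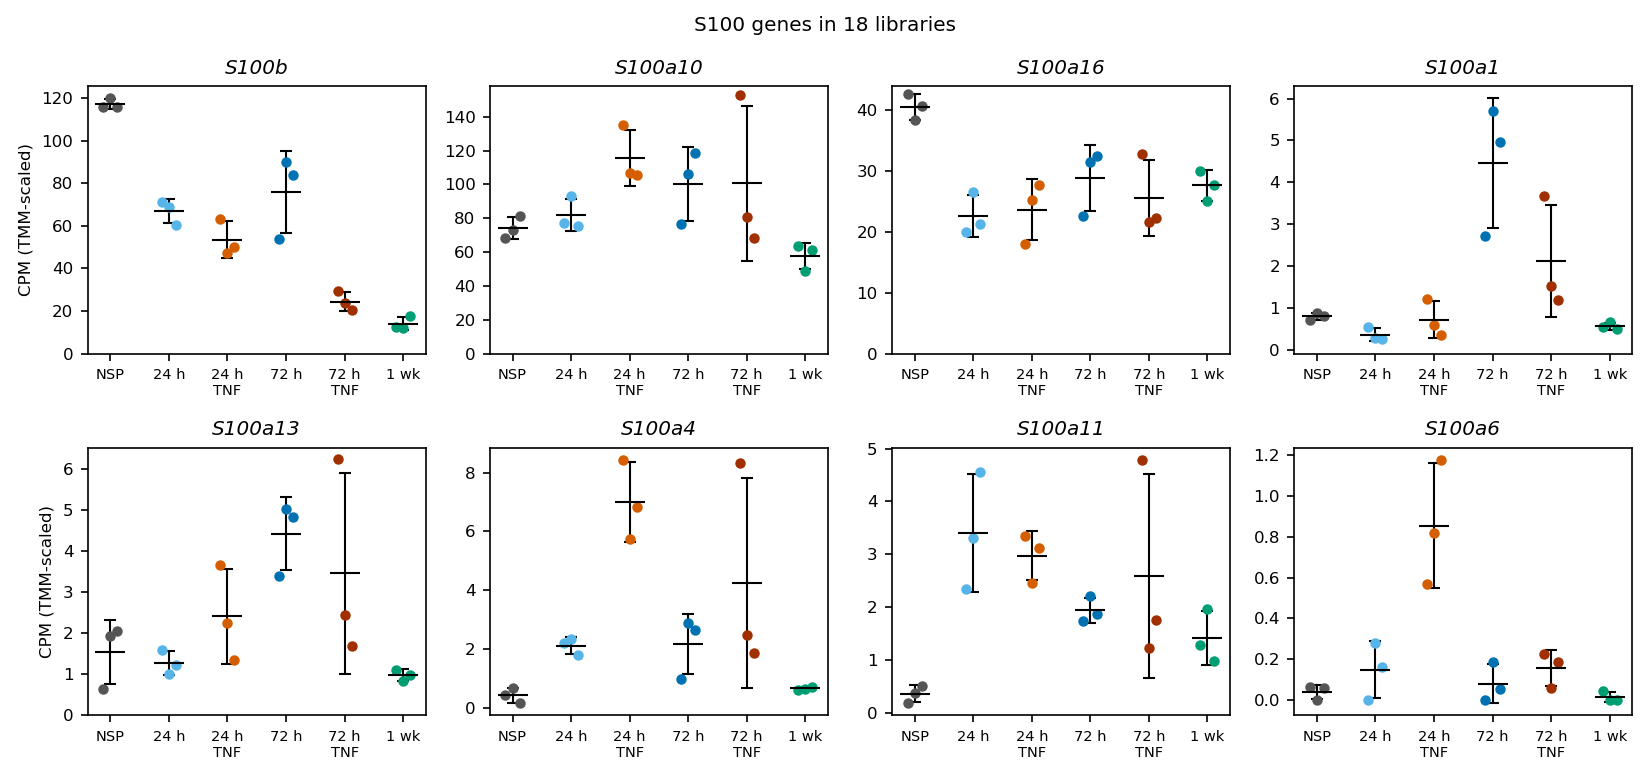
Points are the levels of each S100 gene in single libraries (y axis, CPM after TMM normalization, linear and scaled to each gene) for the 6 conditions (x axis, 3 replicates in order from left to right). Horizontal marks and bars are the mean and SD. S100b declines to 12.2 to 17.6 CPM at 1 week, S100a4 and S100a6 are highest at 24 h with TNF, S100a1 and S100a13 at 72 h, and the left-most point at 72 h with TNF is the highest of its condition for all 8 genes.

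*S100a10*, the partner of annexin A2, was not called against NSPs at any time without TNF in the fit of all libraries (log2 fold change 0.14 ± 0.23 at 24 h, 0.44 ± 0.23 at 72 h and -0.36 ± 0.23 at 1 week). Its level was 68.2, 73.2 and 81.2 CPM in NSPs, 77.4, 93.0 and 75.5 CPM at 24 h, 76.4, 106.0 and 119 CPM at 72 h, and 63.3, 48.6 and 61.1 CPM at 1 week. The NSP, 24 h and 72 h ranges overlapped, and the 1 week libraries were below them. The 72 h difference did pass without 72 h replicate 1 (0.60, edgeR adjusted p = 0.0480), without 72 h TNF replicate 1 (0.47, edgeR adjusted p = 0.0182), without both TNF replicates 1 (0.45, edgeR adjusted p = 0.0164), with no filter on low counts (edgeR adjusted p = 0.0309) and with only the groups compared (edgeR adjusted p = 0.0304). The fall from 72 h to 1 week was called (log2 fold change -0.80 ± 0.23, edgeR adjusted p = 0.0427) but passed with only 7 of the 18 libraries left out in turn, with an edgeR adjusted p from 0.00346 to 0.177. It did not pass with the replicate block that leaves 72 h replicate 3 unpaired (-0.63, edgeR adjusted p = 0.255). At 24 h with TNF the level was 135, 107 and 106 CPM, above every NSP and every 24 h library. This was called against NSPs (0.64 ± 0.23, edgeR adjusted p = 0.0244) and not against 24 h (0.50 ± 0.23, edgeR adjusted p = 0.339). The first call was lost without 24 h TNF replicate 1 (0.49, edgeR adjusted p = 0.107), NSP replicate 1 (0.58, edgeR adjusted p = 0.0731) or NSP replicate 2 (0.63, edgeR adjusted p = 0.0612). At 72 h with TNF the libraries were at 153, 80.9 and 68.1 CPM, and the mean differed from that at 72 h by 0.0044 ± 0.23 on the log2 scale. This value rested on replicate 1, without which it was -0.43 (edgeR adjusted p = 0.189), and without both TNF replicates 1 it was -0.44 (edgeR adjusted p = 0.131).

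*S100a11*, which binds annexin A1, rose from a very low level. NSP libraries had 3, 7 and 9 counts, or 0.190, 0.384 and 0.512 CPM. At 24 h the counts were 31, 59 and 56 (2.34, 3.30 and 4.56 CPM), and every library outside NSPs was above the NSP range. The log2 fold change from NSPs was 3.18 ± 0.50 at 24 h (edgeR adjusted p = 4.07e-05), 2.38 ± 0.51 at 72 h (edgeR adjusted p = 0.000683) and 1.93 ± 0.52 at 1 week (edgeR adjusted p = 0.00398). With TNF it was 3.00 ± 0.50 at 24 h and 2.80 ± 0.50 at 72 h (edgeR adjusted p = 7.26e-05 and 0.000104). The 72 h TNF value was 2.02 without replicate 1 of that condition and 1.995 without both TNF replicates 1. It was the only one of the 7 genes tested that was called higher than NSPs in all 5 other conditions, and each call was kept with every library left out in turn. TNF gave no call at either time (log2 fold change -0.18 ± 0.40 and 0.42 ± 0.41), and without both TNF replicates 1 the 72 h value was -0.40. The summed level of the fibroblast and mural markers, nearly all of it from *Acta2*, smooth muscle actin, was 5.06 to 11.4 CPM in NSPs and 410.7 to 508.5 CPM at 24 h, over the interval in which *S100a11* and *S100a4* rose, while *Lum* among them was at 0 in all 18 libraries. Its part in these rises was not tested.

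*S100a4*, a protein that binds nonmuscle myosin and is linked to cell motility, was highest with TNF at 24 h. Counts were 7, 12 and 3 in NSPs and 29, 42 and 22 at 24 h (2.19, 2.35 and 1.79 CPM). With TNF at 24 h they were 134, 77 and 116 (8.44, 5.74 and 6.84 CPM), so the groups at 24 h did not overlap. The TNF effect at 24 h was 1.72 ± 0.46 on the log2 scale, or 3.30-fold (edgeR adjusted p = 0.0419). Its size held with any library left out (1.55 to 1.84), but the adjusted p ranged from 0.00392 to 0.184 and passed in 7 of 18 cases. Without both TNF replicates 1 it was 1.56 and passed. With the replicate block that leaves 72 h replicate 3 unpaired it was 1.745 and did not pass (edgeR adjusted p = 0.0513). At 72 h with TNF the libraries were at 8.34, 2.50 and 1.88 CPM and those without TNF at 0.984, 2.88 and 2.64 CPM. These overlapped (0.95 ± 0.45, edgeR adjusted p = 0.201), and without both TNF replicates 1 the difference was -0.02. Against NSPs the gene was called higher at 24 h (2.30 ± 0.58), 72 h (2.35 ± 0.58), 24 h with TNF (4.02 ± 0.55) and 72 h with TNF (3.30 ± 0.55). The last value was 2.38 without 72 h TNF replicate 1 and 2.35 without both TNF replicates 1, and it passed in each case. At 1 week its counts were 14, 12 and 10, and the difference from NSPs was 0.61 ± 0.65 (edgeR adjusted p = 0.433).

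*S100a6*, the neighbour of *S100a4* and a binder of the ubiquitin ligase subunit CacyBP, was close to the limit of detection. NSP libraries had 1, 0 and 1 counts, 24 h libraries 0, 5 and 2, 72 h libraries 0, 3 and 1, and 1 week libraries 1, 0 and 0. With TNF there were 9, 11 and 20 counts at 24 h (0.567, 0.820 and 1.18 CPM) and 4, 1 and 3 at 72 h. The 24 h TNF libraries were above all the others. Summed over replicates and scaled to depth, 40 counts with TNF at 24 h against 7 without gave a ratio of 5.36 (95% counting interval 2.38 to 14.2), and against 8 with TNF at 72 h a ratio of 5.51 (2.54 to 13.6). These intervals cover counting error only. No test is given for *S100a6*, since it passes looser filters through its 24 h TNF counts.

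*S100a1* and *S100a13* peaked together at 72 h. S100A1 regulates calcium release channels of the ryanodine receptor type, and S100A13 is part of the complex that exports FGF1 from cells. *S100a1* had 11, 16 and 14 counts in NSPs, 7, 5 and 3 at 24 h, 36, 93 and 90 at 72 h and 12, 12 and 7 at 1 week. In CPM the 72 h libraries were at 2.72, 5.71 and 4.95, above every untreated library of the other times. The rise from 24 h to 72 h was 3.66 ± 0.50 on the log2 scale, or 12.7-fold (edgeR adjusted p = 2.90e-05). The fall from 72 h to 1 week was -2.98 ± 0.45 (edgeR adjusted p = 0.000404), and both calls were kept with each library left out.

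*S100a13* had 10, 35 and 36 counts in NSPs, 21, 18 and 15 at 24 h, 45, 82 and 88 at 72 h and 25, 15 and 14 at 1 week. The 72 h libraries were at 3.41, 5.03 and 4.84 CPM and again lay above the untreated libraries of the other times. The rise from 24 h was 1.81 ± 0.47 (edgeR adjusted p = 0.00833) and the fall to 1 week -2.18 ± 0.47 (edgeR adjusted p = 0.00799). The second call was lost with the replicate block that leaves 72 h replicate 3 unpaired (-2.04, edgeR adjusted p = 0.0531). The same block ended the call at 72 h against NSPs, which was 1.515 ± 0.45 (edgeR adjusted p = 0.00823) in the full fit and 1.29 (edgeR adjusted p = 0.0506) with the block. Over the 18 libraries the log2 CPM of *S100a1* and *S100a13* had Pearson's r = 0.85, the highest of the 21 pairs among the 7 genes. Their r of the deviations from the condition means was 0.81, and over the 21 pairs it ranged from 0.09 to 0.81. It was 0.75 for *S100a4* with *S100a10*, and 0.73 for *S100a10* with *S100b*, which lies on another chromosome. The libraries share preparation and depth, so r is given as a description.

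With TNF at 72 h, *S100a1* was at 3.66, 1.51 and 1.19 CPM and *S100a13* at 6.25, 2.44 and 1.69 CPM. For both genes replicate 1 reached or passed the untreated range and the other replicates lay below it. The TNF effect on *S100a1* was -1.07 ± 0.39 (edgeR adjusted p = 0.0895) with all libraries. Without both TNF replicates 1 it was -1.73 ± 0.33 (edgeR adjusted p = 0.00196). For *S100a13* it was -0.35 ± 0.42 with all libraries and -1.11 ± 0.36 without both, and neither passed. Against NSPs at 72 h with TNF, *S100a1* (1.42 ± 0.44, edgeR adjusted p = 0.00972) and *S100a13* (1.16 ± 0.46, edgeR adjusted p = 0.0336) were called, and without both TNF replicates 1 neither was (0.77 and 0.42). Without NSP replicate 1 the value of *S100a13* was 0.80 (edgeR adjusted p = 0.140).

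*S100a16* was lower after NSPs. It stood at 42.7, 38.4 and 40.6 CPM in NSPs, 20.0, 26.6 and 21.3 CPM at 24 h, 22.6, 31.4 and 32.5 CPM at 72 h and 30.0, 25.1 and 27.7 CPM at 1 week. All libraries of other conditions lay below the NSP range, and those conditions overlapped with each other. The log2 fold change was -0.84 ± 0.19 at 24 h (edgeR adjusted p = 0.00121), -0.49 ± 0.19 at 72 h (edgeR adjusted p = 0.0332) and -0.55 ± 0.19 at 1 week (edgeR adjusted p = 0.0165). The 72 h call was lost without 72 h replicate 1 (-0.34, edgeR adjusted p = 0.164), NSP replicate 1 (edgeR adjusted p = 0.0754) or NSP replicate 3 (edgeR adjusted p = 0.0644) and where each library had to reach 10 counts (edgeR adjusted p = 0.0609), and the 1 week call without 1 week replicate 2 (edgeR adjusted p = 0.0668). With TNF it was -0.78 ± 0.19 at 24 h and -0.67 ± 0.19 at 72 h, and both were called. TNF against no TNF gave 0.06 ± 0.19 at 24 h and -0.18 ± 0.19 at 72 h.

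**Figure D3:**
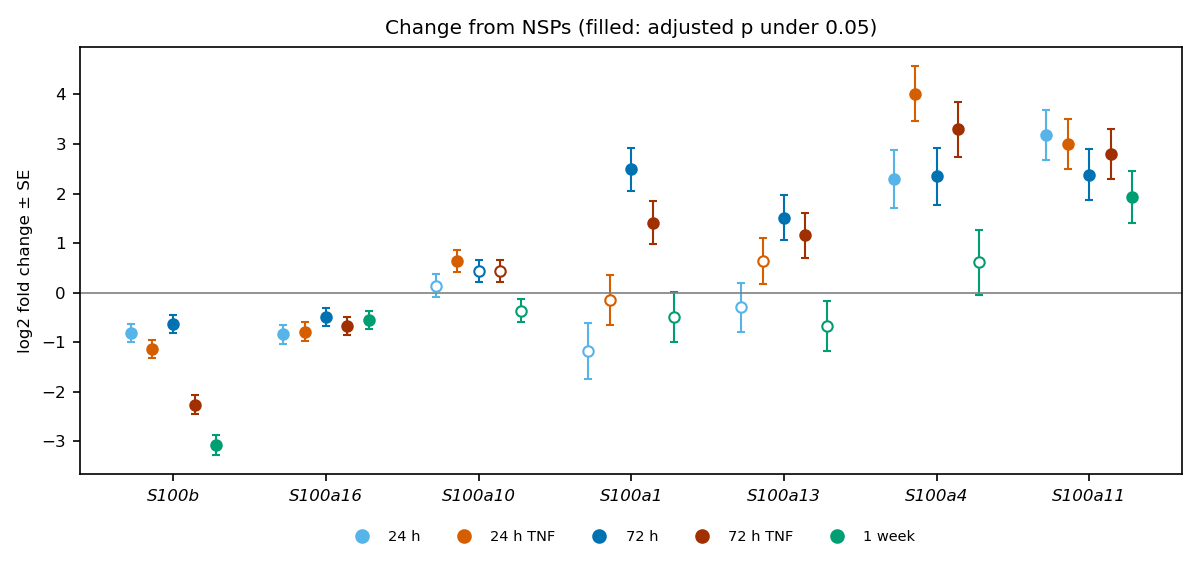
Points are log2 fold changes from NSPs (y axis, error bars SE, edgeR) for the 7 S100 genes tested (x axis) in the 5 other conditions, which share the 3 NSP libraries, and filled points have an adjusted p under 0.05. S100b and S100a16 lie below 0 throughout, S100a11 above 0 throughout, and S100a1 and S100a13 are called at 72 h with and without TNF only.

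**Figure D4:**
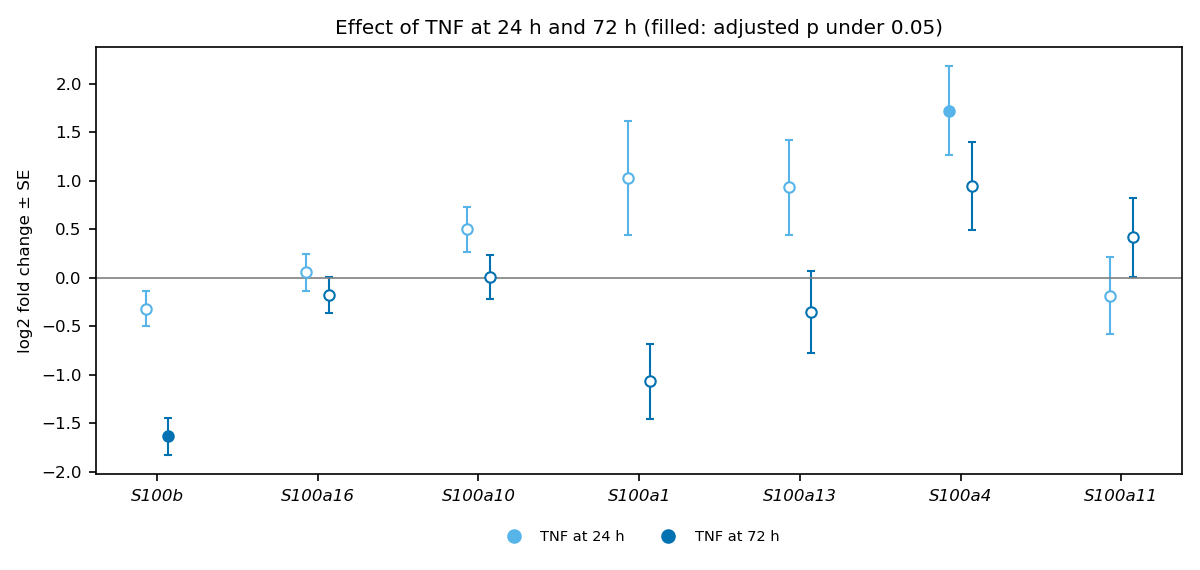
Points are log2 fold changes of TNF against no TNF (y axis, error bars SE, edgeR) at 24 h and 72 h for the 7 S100 genes tested (x axis), and filled points have an adjusted p under 0.05. The filled points are S100a4 at 24 h (1.72) and S100b at 72 h (-1.64).

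The known partners of S100 proteins were followed in the same fit. Of 7 annexins, 6 were tested. Called higher against NSPs were 4 of them after 24 h (27.2% of all genes tested) and all 6 after 72 h (28.1%), after 1 week (29.6%), after 24 h with TNF (28.2%) and after 72 h with TNF (31.7%). Their median log2 fold change was 0.75 at 24 h and 2.09 at 72 h, beside 0.06 and 0.05 over all genes tested. Without both TNF replicates 1, 7 annexins passed the filter. Of these, 6 were called after 24 h with TNF and 7 after 72 h with TNF. In this fit 48.1% and 58.2% of all genes tested were called, higher or lower. Leaving out NSP replicate 1, again with 7 annexins tested, gave 3 calls for 24 h and 6 for 1 week. It also gave 6 for 24 h with TNF, and 7 for 72 h whether TNF was present or not. The share of all genes in that fit is not given here. *Anxa2*, the partner of *S100a10*, was at 5.31 ± 2.46 CPM in NSPs. It reached 10.4 ± 1.26 CPM by 24 h and 24.7 ± 4.54 CPM by 72 h and stood at 11.9 ± 0.980 CPM after 1 week. Its call at 24 h against NSPs (0.96 ± 0.34, edgeR adjusted p = 0.0226) was lost without NSP replicate 1 (0.63, edgeR adjusted p = 0.104). With TNF at 24 h *Anxa2* was at 36.97, 15.5 and 14.6 CPM, with replicate 1 far above the others. *Anxa1*, the partner of *S100a11*, was at 12.97 ± 1.89 CPM at 24 h and 36.9 ± 9.07 with TNF, and at 5.44 ± 1.77 CPM at 72 h and 15.6 ± 3.44 with TNF. The TNF effect on it was 1.504 ± 0.25 and 1.51 ± 0.26 on the log2 scale (edgeR adjusted p = 0.00164 and 0.000940). *Anxa5* was at 52.5, 62.5 and 50.9 CPM at 24 h and at 128.6, 78.8 and 73.4 CPM with TNF (0.76 ± 0.19, edgeR adjusted p = 0.0316). This call rested on replicate 1, without which the value was 0.44 (edgeR adjusted p = 0.220), and without both TNF replicates 1 it was 0.45 (edgeR adjusted p = 0.190).

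Of 13 cytoskeletal targets, NSPs and 24 h cells differed in 11, with 8 higher at 24 h and 3 lower (27.2% and 25.5% of all genes tested). DESeq2 called 5 higher and 3 lower, and without NSP replicate 1 edgeR called 7 higher and 0 lower. The shares of all genes belong to the edgeR fit of all libraries, and those of these other fits are not given here. At 72 h, 9 were higher and 2 lower (28.1% and 27.2% of all genes tested), and the median log2 fold change was 0.56 and 0.69 at these times. The largest change was in *Ahnak*, a giant scaffold protein that binds the complex of S100A10 and annexin A2. Its libraries were at 0.508 to 1.48 CPM before differentiation and at 202 to 224 CPM at 72 h (log2 fold change 7.58 ± 0.77, edgeR adjusted p = 1.42e-07). With TNF it was at 332, 38.1 and 35.6 CPM at 24 h, so replicate 1 was far above the others, and at 391 to 422 CPM at 72 h. *Tpm1* and *Tpm2*, tropomyosins, were called higher in all 5 comparisons with NSPs, but without NSP replicate 1 the call of *Tpm2* at 72 h with TNF was lost (edgeR adjusted p = 0.0580).

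Of 9 receptors and secretion partners, 8 were tested, and against NSPs 5 were higher and 1 lower at 72 h (28.1% and 27.2% of all genes tested), with a median of 0.64. *Tlr4*, a receptor that S100 proteins can act on, was at 3.19 to 4.23 CPM at 24 h and 13.6 to 18.4 CPM with TNF, and at 5.15 to 6.75 CPM at 72 h and 17.7 to 20.7 CPM with TNF. Its TNF effect was 2.10 on the log2 scale at 24 h (edgeR adjusted p = 7.17e-06) and 1.71 at 72 h (edgeR adjusted p = 1.91e-05). *Sdc4*, a cell surface proteoglycan, was called higher with TNF at 24 h (1.10, edgeR adjusted p = 0.000562) and not at 72 h. *Fgf1*, the cargo of *S100a13*, was at 24.9 CPM in NSPs and lower at 72 h, at 9.82 CPM (-1.34, edgeR adjusted p = 0.000423). Of 15 other partners tested, 5 were called higher after 24 h and 4 lower (27.2% and 25.5% of all genes tested), with a median of -0.02. Among them *Ryr2*, a ryanodine receptor and target of S100A1, was at 230 CPM at 24 h and 33.9 CPM at 72 h (-2.77, edgeR adjusted p = 3.89e-08), over the interval in which *S100a1* rose.

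Of 18 other EF-hand genes, 17 were tested. After 24 h, 4 were called higher and 7 lower against NSPs (27.2% and 25.5% of all genes tested), with a median of -0.25. After 72 h these were 6 and 7 (28.1% and 27.2%), with a median of 0.06. *Sparc*, a matrix protein with EF-hands, was at 237 CPM in NSPs and 1880 CPM at 1 week (2.99, edgeR adjusted p = 3.14e-10). TNF at 24 h gave 1 call among the 17 (3.5% of all genes tested were called), for *Pvalb*, a calcium buffer. It went from 0.423 to 4.64 CPM (3.46, edgeR adjusted p = 0.00553), and its value without both TNF replicates 1 was 2.54 (edgeR adjusted p = 0.00854). At 72 h, 2 of the 17 were called higher with TNF and 3 lower (9.56% of all genes tested were called), with a median of -0.37.

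**Figure D5:**
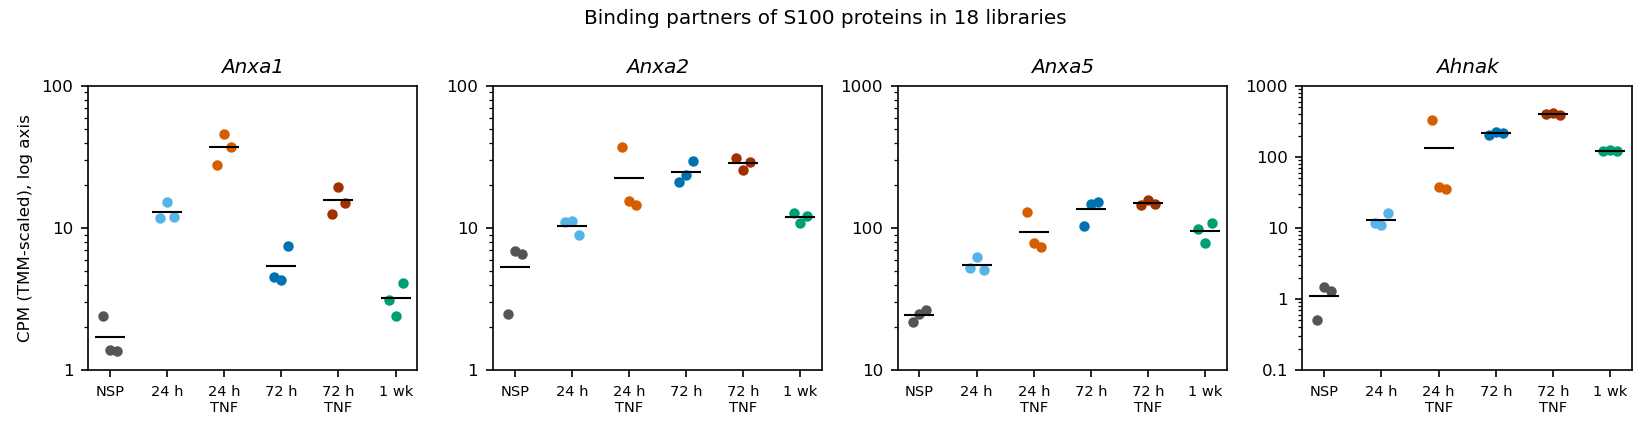
Points are levels in single libraries (y axis, CPM after TMM normalization, log scale) of 3 annexins and Ahnak in the 6 conditions (x axis, 3 replicates in order), with horizontal marks at the mean. Anxa1 is highest at 24 h with TNF (36.9 CPM), and at that condition replicate 1 of Ahnak (332 CPM) lies far above the other replicates.

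The table held 10 other genes with S100 in their name, of which 3 passed the filter. *S100pbp*, which encodes a protein that binds S100 proteins, was the only one to reach 1 CPM in 3 libraries, with 957 to 1970 counts per library. *S100a3*, named here after its values were seen, had 1 to 4 counts in the NSP and 24 h libraries, 8 to 15 at 24 h with TNF, 5, 15 and 14 at 72 h, 6 to 9 at 72 h with TNF and 0 to 5 at 1 week, and it too shares exon bases with *Gm42674*. *S100a8* and *S100a9*, which are typical of myeloid cells, had 2 counts and 0 counts over all 18 libraries.

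The genes whose log2 CPM followed each S100 gene most closely over the 18 libraries were sought among 12626 protein-coding genes with a mean of at least 1 CPM. For *S100b* they were *Efcab1*, another EF-hand gene (Pearson's r = 0.96), *St6gal2* and *2810459M11Rik* (0.94 and 0.93). For *S100a1* they were *Srl*, *Flvcr1* and *Dbndd2* (r = 0.94, 0.91 and 0.89), and *Srl*, which encodes the calcium-binding protein sarcalumenin, was at 10.9 CPM at 24 h, 70.7 CPM at 72 h and 21.2 CPM at 1 week. For *S100a13* they were *Fuca2*, *Tifa* and *Txlnb* (0.91, 0.90 and 0.89). For *S100a4* they were *1500009L16Rik*, *Junb* and *Ankrd28* (0.93, 0.92 and 0.92), for *S100a10* *Fos*, *Sat1* and *Atp6v1e1* (0.89, 0.89 and 0.87), for *S100a11* *Spsb1*, *Chst9* and *Mroh1* (0.95, 0.94 and 0.93), and for *S100a16* *Pfdn6*, *Fbxw11* and *Mogs* (0.93, 0.93 and 0.92).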

How the data were processed

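Total RNA was depleted of ribosomal RNA and sequenced as stranded, paired-end libraries from 18 cultures. RNA quality numbers were between 3.4 and 10 and are not given per library. The authors trimmed the reads with Trim Galore, aligned them with STAR, sorted them with Samtools, used Feature Counts for the counting per gene, and deposited the raw counts, not normalized. The submitters' processing notes name the build mm10. Tool versions, the strand option and the treatment of reads matching several genes are not given in the sources used here. Gene names and positions are those of GENCODE M21, which holds 54809 of the 54838 identifiers.

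From the counts, edgeR 4.0.16 (R 4.3.3, limma 3.58.1) fitted its quasi-likelihood test once over all 18 libraries with TMM factors and a mean per condition. The 20067 genes passing its filter were tested in 11 comparisons, interaction included, with Benjamini-Hochberg adjustment. The SE is the size of the log2 change divided by the square root of F. The biological coefficient of variation was 0.18. In each pair of replicates the counts were farther apart than sampling noise allows (4.08 to 62.7 chi-square units per degree of freedom). Alternatives were DESeq2 1.42.0, RLE factors, other filters, only the groups compared, the replicate block, a minimum log2 fold change of 1, and leaving out libraries. The alternatives for partner genes, and leaving out both TNF replicates 1 together, were chosen after seeing the data. Genes named are the 8 members, up to 3 called genes of each partner list and comparison, and the 3 genes most correlated with each member (log2 CPM, prior count 2). Some genes that this rule would name are not reported here. The members and lists were chosen with earlier results of these data known. Same-numbered libraries deviated together in every pair (r above 0.1) only between the TNF conditions (r from 0.255 to 0.291). Chromatin data were not analysed here.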

Additional observations from a re-analysis of the deposited data

Results flagged for a closer look

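The TNF effect on *S100b* differed between the times. It was -0.32 ± 0.18 on the log2 scale at 24 h and -1.64 ± 0.19 at 72 h, and their difference, tested as an interaction, was -1.32 ± 0.26 (-1.318 unrounded, edgeR adjusted p = 0.0309). At 72 h all 3 TNF libraries were below all 3 untreated ones. The call was lost with the replicate block, in a fit of only the groups compared (edgeR adjusted p = 0.0666), and with 8 of the 18 libraries left out in turn, while the value stayed between -1.51 and -1.15.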

How the results depend on the processing

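Counts here are over the 7 genes of the full fit, without *S100a6*, and the share of all genes called stands in parentheses. Where each library was left out in turn, this is the share in the full fit, and the shares of the single fits are not given here. Leaving out each library in turn gave 4 calls at 24 h against NSPs (52.7%), 5 to 7 at 72 h (55.3%) and 2 to 3 at 1 week (58.6%). With TNF, the calls against NSPs were 4 to 5 at 24 h (54.5%) and 4 to 7 at 72 h (61.9%). There were 2 from 24 h to 72 h (24.8%), 3 to 5 from 72 h to 1 week (6.63%) and 1 to 3 between the TNF conditions (13.3%). For TNF against no TNF there were 0 to 1 at 24 h (3.5%), 1 to 2 at 72 h (9.56%) and 0 to 1 for the interaction (0.458%). With at least 10 counts in every library only 4 of the genes were tested, and the calls were 2 at 24 h (55.7%), 2 at 72 h (58.8%), 3 at 24 h with TNF (56.7%), 1 from 24 h to 72 h (26.2%), 1 between the TNF conditions (14.4%) and 0 for TNF at 24 h (3.53%). A log2 fold change of at least 1 left 2 calls at 24 h (28.8%) and 3 at 24 h with TNF (29.9%) against NSPs. No filter gave 2 calls for TNF at 24 h (3.65%), 3 for TNF at 72 h (7.29%) and 2 for the interaction (1.47%). Fitting only the groups compared gave 1 call between the TNF conditions (4.54%) and 0 for the interaction (0.197%). The replicate block gave 0 for the interaction (0.324%), and for single genes it also ended the call of *S100a13* at 72 h with TNF against NSPs (edgeR adjusted p = 0.0635). With 72 h replicate 3, whose column carries the number 4, left unpaired, the block gave 2 calls from 72 h to 1 week (3.07%), 0 for TNF at 24 h (2.97%) and 0 for the interaction (0.12%). Without both TNF replicates 1, chosen after seeing the data, the calls against NSPs were 5 at 24 h (55.5%), 7 at 72 h (57.5%), 3 at 1 week (61.0%), 5 at 24 h with TNF (48.1%) and 4 at 72 h with TNF (58.2%), and the others were 2 from 24 h to 72 h (28.3%), 5 from 72 h to 1 week (10.5%), 3 between the TNF conditions (16.9%), 1 for TNF at 24 h (3.65%), 2 for TNF at 72 h (8.77%) and 1 for the interaction (0.674%). Except where an alternative tested fewer genes or set a larger fold, the cause was not tested.

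Of the 77 single-gene results (7 genes in 11 comparisons), 35 were past the threshold. Over 28 alternatives they gave 2122 values, of which 2028 stayed on their side of the threshold, 66 lost a call and 28 gained one, and no called value changed sign. DESeq2 gained 1 call and lost none, and RLE factors changed none. The counts of *S100a1*, *S100a4*, *S100a11* and *S100a13* were between 3 and 148 per library, which limits their precision, and *S100a6* with at most 20 counts could not be tested in the full fit.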
